A study of Mus musculus with 12 samples.

Results

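Quercetin and the control diet were compared in the colon epithelium of wild type mice, by the 3 arrays of wild type mice fed quercetin and the 3 arrays of wild type mice fed the control diet. The 6 arrays were chosen by their titles out of 12. The other 6 came from POR-null mice, a line in which the reductase that supplies electrons to microsomal cytochromes P450 is known to be deleted in hepatocytes. They entered the common estimate of the spread and the test of whether the genotypes differed. They also entered the choice of genes by that test, of each gene's brightest probe set for lists, and the filter on dim signal. All mice were C57BL/6 males of 6 to 8 weeks, housed on RM3 powder free of soya for 14 days. For the next 24 hours one group kept that powder, and the other received it with 6200 ppm (0.62%) quercetin, an intake of about 7 mg per mouse. Each array carried biotin-labelled RNA pooled from 3 mice, so a group of 3 arrays stood for 9 mice. The tissue was the layer scraped from the colon between caecum and rectum, and it was hybridised to Affymetrix 430A mouse arrays. A replicate is thus a pool, and each standard error (SE) measures the spread between pools.

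Quercetin is a plant flavonol. Epithelial cells take it up, attach glucuronic acid, sulfate or methyl groups to it and pump much of it back into the lumen. In cultured cells it is known as a ligand of the aryl hydrocarbon receptor (AhR), which switches on Cyp1a1 and Cyp1b1, and as an activator of NRF2, which switches on glutathione and quinone-reducing enzymes. The colon epithelium itself is made of absorptive colonocytes, mucus-secreting goblet cells and rarer endocrine and tuft cells above a layer of stroma, vessels, immune cells and smooth muscle.

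The arrays carried the defining markers of that epithelium. Epcam, the epithelial adhesion molecule, stood between 12.09 and 12.32 log2 units on the 6 arrays, Krt20 between 12.03 and 12.47, and Car1, a carbonic anhydrase of colonocytes, between 12.62 and 13.31. Array medians ran from 5.91 to 5.98, and correlations between arrays ran from 0.985 to 0.995 within groups and from 0.983 to 0.99 between them. Of the markers of other organs, the liver gene Alb stood between 5.55 and 6.1, whereas Cpa1, a pancreatic carboxypeptidase, ranged from 4.83 to 8.04. Lct, the lactase of the small intestine, ranged from 4.53 to 8.07. Individual arrays stood apart in these and other markers of neighbouring tissue. Control array 1 was the highest for pancreatic genes, quercetin array 1 the lowest for small intestine genes, and quercetin array 3 the highest for smooth muscle genes. The difference between the 3' and 5' probe sets of the actin control, a sign of RNA integrity, was 0.97 to 1.07 on control arrays and 1.03 to 1.15 on quercetin arrays.

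After 24 hours of quercetin no probe set passed the threshold, an adjusted p of 0.05 in limma. The count was 0 of 22626 probe sets (0%), and the smallest adjusted p was 0.119. Without adjustment 1165 probe sets (5.15%) had p under 0.05, of which 725 (3.2%) were higher and 440 (1.94%) lower on quercetin. Those shares lie near the 5% that the threshold itself allows. Higher sets made up 62.2% of the 1165, but 53.1% after quantile normalization and 49.3% after median centring, so the excess of higher sets depended on the scale. The 2 groups did not overlap in 2106 probe sets (9.31%), with quercetin above in 1279 (5.65%) and below in 827 (3.66%). This split depended on the scale as well, with 1190 above and 1174 below after quantile normalization and 1034 and 1098 after median centring. In an exact permutation test 3 arrays against 3 cannot give p below 0.1. The words higher and lower below give the sign of a difference of means, in log2 units, quercetin minus control, and no gene named here passed the adjusted threshold in the 12-array fit.

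Differences of at least 1 log2 unit, a doubling, were seen in 56 genes upward and 19 downward. Of the 56 genes, 40 belonged to a list of cell type markers, which hold 393 of the 12393 genes (3.17%), including 14 of smooth muscle, 7 of fibroblasts and matrix, 7 of B and plasma cells, 5 of major histocompatibility complex (MHC) class II presentation and 3 of adipocytes. Their quercetin value was most extreme on quercetin array 3 for 33 of them, on array 2 for 17 and on array 1 for 6. Of the 19 lower genes, 9 were pancreatic acinar markers, a list of 23 genes (0.186% of all), and 15 had their lowest quercetin value on quercetin array 1. The lists were written with earlier results of these data known, so these shares only describe the overlap. In bulk tissue fewer cells of a type and less RNA per cell cannot be told apart. The plot of differences against unadjusted p shows that few of the large differences had the smallest p values, among them those of Ccn3, Qpct and Ifi202b.

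**Figure D1:**
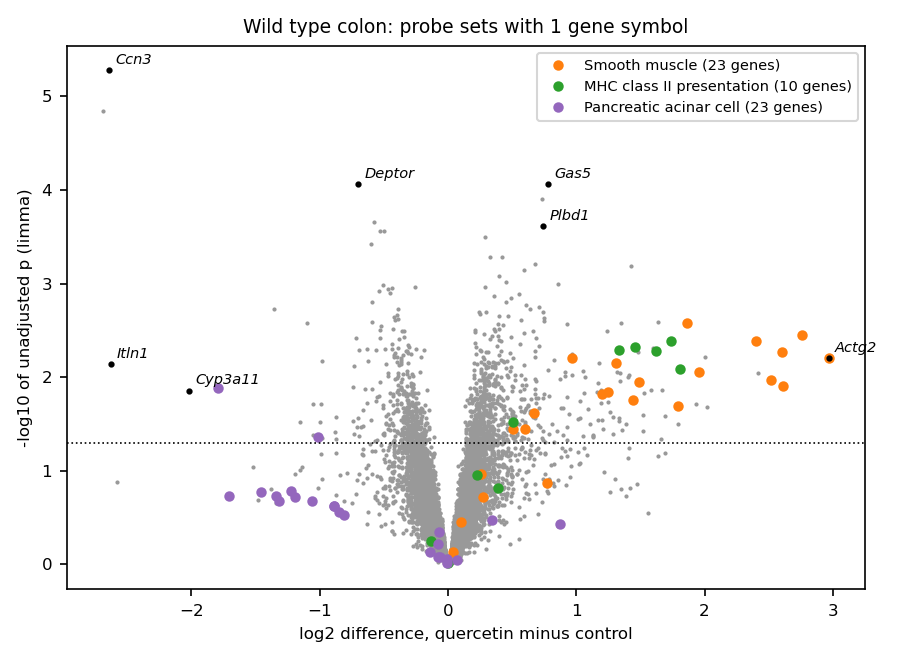
Difference between quercetin and control in wild type colon (log2 units, horizontal) against -log10 of the unadjusted p of limma (vertical) for the 20380 probe sets with 1 gene symbol. The dotted line marks the unadjusted threshold. Smooth muscle genes reach differences near 3 with moderate p, Ccn3 stands alone at the upper left with a difference of -2.64, and Deptor, Gas5 and Plbd1 combine small differences with small p.

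The gene with the smallest p was Ccn3, which encodes a secreted matricellular protein of the CCN family that is known to restrain proliferation. Its signal was 6.93, 7.46 and 7.13 on the control arrays and 5.47, 4.42 and 3.72 on the quercetin arrays. All quercetin arrays lay below all control arrays. The gap between the groups was wider than the spread within the control group but narrower than that within the quercetin group. The difference was -2.64 ± 0.36 (SE, n = 3 arrays a group), a 6.22-fold lower signal, with an adjusted p of 0.119 in limma. A second probe set of the gene gave -2.69 ± 0.4, with an adjusted p of 0.162. Quercetin array 1 was the highest of its group, and without it the difference was -3.1 with an adjusted p of 0.00264. With arrays weighted by their quality the adjusted p was 0.0195, and over all alternatives it ran from 0.00264 to 0.998. The other 4 measured members of the family were all slightly higher. Ccn2, a profibrotic member, differed by 0.09 ± 0.42, Ccn4 by 0.12 and Ccn5 by 0.11, while Ccn1 was 4.57, 4.48 and 4.52 on control and 4.78, 4.71 and 4.85 on quercetin.

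Deptor, which binds and inhibits the growth kinase mTOR, was next. It stood at 9.12, 9.02 and 9.22 on control and at 8.65, 8.31 and 8.31 on quercetin, without overlap. The difference was -0.7 ± 0.12, with an adjusted p of 0.492 in limma. Its other probe sets showed smaller differences of -0.27 and -0.23. Of the 25 measured genes of mTOR and nutrient signalling, 17 were lower and 8 higher with a median of -0.03, against a median of 0.00 over all 12393 genes, 48.9% of which were lower. Of all 52 lists measured, 33 had a median between -0.1 and 0.1, and in 21 of the 52 the sign of the median turned when 1 array was left out, so medians this small carry no direction. Mtor itself differed by -0.06, Rictor by 0.00 and Rheb, the small GTPase that activates mTOR, by -0.17.

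The other 13 genes of the 15 lower ones with the smallest p were smaller differences, from -0.26 to -1.36. Errfi1, a feedback inhibitor of the EGF receptor, stood at 9.11, 8.96 and 9.01 on control against 8.82, 8.52 and 8.57 on quercetin. Bhlhe40, a transcriptional repressor of the circadian clock, was 8.83, 8.99 and 8.91 against 8.36, 8.36 and 8.48. Neither gene overlapped between the groups, and the differences were -0.39 ± 0.1 and -0.51 ± 0.12. Kdelr2, the receptor that returns escaped chaperones to the endoplasmic reticulum, was 9.09, 9.23 and 9.27 against 8.81, 8.66 and 8.52, a difference of -0.53 ± 0.11 that its second probe set gave as -0.34 ± 0.1. Bpnt1, which removes the phosphoadenosine left by sulfation, was 7.86, 8.25 and 8.13 against 7.59, 7.54 and 7.32. Its difference was -0.6 ± 0.13, while a second probe set gave -0.2 ± 0.19. Serinc3, a membrane protein of the serine incorporator family, was 9.71, 9.87 and 9.79 against 9.34, 9.28 and 9.13. Sco2, a copper chaperone of cytochrome c oxidase, was 6.85, 7.01 and 6.75 against 6.13, 6.44 and 6.29. Both were lower on every quercetin array, by -0.54 ± 0.13 and -0.58 ± 0.12. Ifi202b, an interferon-inducible DNA-binding protein, had the widest spread, with 5.36, 5.83 and 5.34 against 3.66, 5.05 and 3.74.

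Among those 13 genes, Tmlhe, the first enzyme of carnitine synthesis, differed by -0.44, and Tcim by -0.59. For Chchd3, a mitochondrial cristae protein, one probe set gave -0.47 and the other 0.00, so the gene's probe sets disagreed. Ccdc91, Rimklb and Dmrtb1 had both group means below the lower quartile of the arrays, which was 4.68 to 4.78, and their differences are those of very dim probe sets. Brighter probe sets gave -0.2 for Ccdc91 and 0.06 for Rimklb. The adjusted p of the 15 lower genes ran from 0.119 to 0.948 in limma.

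**Figure D2:**
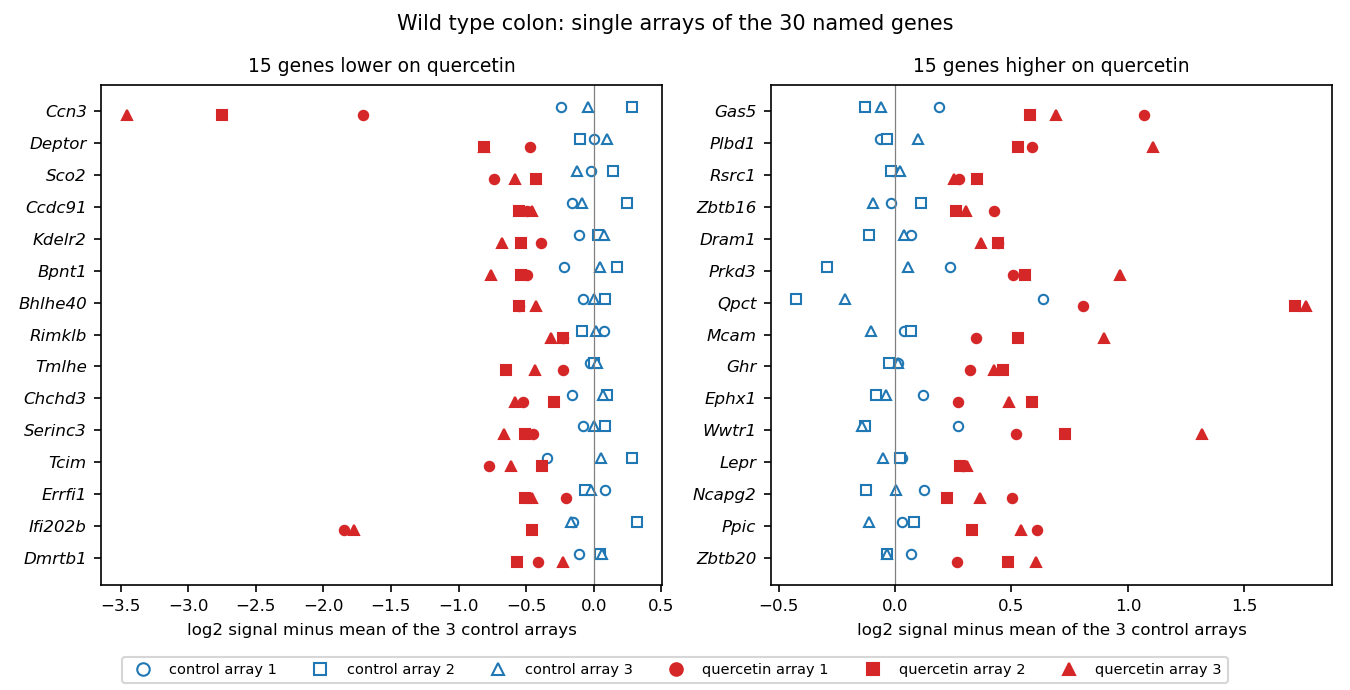
Signal of each wild type array minus the mean of the 3 control arrays (log2 units) for the 15 lower and the 15 higher genes with the smallest unadjusted p and no overlap, open symbols for control and filled symbols for quercetin. In 24 of the 30 genes every quercetin array lies within 1 log2 unit of the control mean; Ccn3, Ifi202b, Qpct, Gas5, Plbd1 and Wwtr1 have at least 1 array farther out.

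Among the higher genes the smallest p belonged to Gas5, a non-coding RNA whose introns hold small nucleolar RNAs and which is known to accumulate when translation or growth slows. It stood at 8.46, 8.14 and 8.21 on control and at 9.34, 8.85 and 8.96 on quercetin. Every quercetin array lay above every control array. The difference was 0.78 ± 0.14, with an adjusted p of 0.492 in limma, and its other probe sets gave 0.73, 0.57 and 0.3. Of the 15 measured host genes of small nucleolar RNAs, 11 were higher with a median of 0.08, which became 0.01 without quercetin array 1 and 0.14 without array 3. Snhg1 differed by 0.1, Snhg5 by 0.14 and Snhg8 by 0.17, so Gas5, taken there by its brightest probe set at 0.73, stood above the rest.

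Gas5 and many ribosomal protein genes begin with a C followed by a run of pyrimidines, the 5' terminal oligopyrimidine (TOP) start through which mTOR is known to govern translation. The start of Gas5 is shown beside those of Rps10 and Rps6, which had the highest and the lowest difference of the 8 ribosomal protein genes in which such a start was found. Each runs 15 bases before and 15 from the annotated start (RefSeq, GRCm38.p6), and capitals mark the pyrimidine run.
Gas5 (chr1:161035151-161035180, plus strand): agccgccatctcagcCTTTCggagctgtgc
Rps10 (chr17:27635230-27635259, minus strand): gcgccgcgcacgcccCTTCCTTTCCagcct
Rps6 (chr4:86857353-86857382, minus strand): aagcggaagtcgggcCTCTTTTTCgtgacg
A C at the start base followed by at least 4 bases that are C or T was found on the transcribed strand in 8 of 34 ribosomal protein genes with a promoter entry. It was found in 2 of 13 host genes, Gas5 and Snhg8, and in 300 of all 9887 genes (3.03%). The match is a description of these letters at the annotated starts.

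The ribosomal protein genes were higher by small amounts. Of 39 measured, 35 were higher and 4 lower, with a median of 0.11 and a range from -0.08 to 0.32, against 50.7% higher among all genes. Quercetin lay above control without overlap in 9 of the 39 genes, against 5.64% of all genes, and 4 had an unadjusted p under 0.05, against 3.21%. Rpsa, a protein of the small subunit, stood at 11.83, 11.55 and 11.42 on control and at 11.84, 12.01 and 11.91 on quercetin. Rps15, of the small subunit as well, stood at 11.29, 11.2 and 11.06 against 11.44, 11.59 and 11.42. Neither gene overlapped, with differences of 0.32 ± 0.1 and 0.3 ± 0.1 and an adjusted p of 0.952 in limma. The 8 genes with a TOP start differed by 0.17 ± 0.08 (Rps10), 0.16 (Rplp2), 0.15 (Rpl38), 0.12 (Rpl35), 0.09 (Rps27), 0.07 (Rps18), 0.00 (Rpl14) and -0.08 ± 0.21 (Rps6). The list mean was 10.7, 10.66 and 10.66 on the control arrays and 10.84, 10.82 and 10.69 on the quercetin arrays, so quercetin array 3 lay at the control level. The median stayed between 0.09 and 0.16 when any 1 array was left out. In the POR-null arrays the median was -0.03. Ribosomal protein genes have many near-identical pseudogenes that share probes, so single members are uncertain.

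Plbd1, a phospholipase B-like protein of lysosomes, stood at 7.46, 7.49 and 7.62 on control and at 8.11, 8.05 and 8.63 on quercetin. The groups did not overlap, and the difference was 0.74 ± 0.15 with an adjusted p of 0.624 in limma. Ephx1, the microsomal epoxide hydrolase, stood at 6.39, 6.19 and 6.23 against 6.54, 6.86 and 6.76, a difference of 0.45 ± 0.11. Qpct, which cyclises the first glutamine of secreted peptides, stood at 4.93, 3.87 and 4.08 against 5.1, 6.01 and 6.06. Its groups were apart by less than the spread within either, as control array 1 lay just under quercetin array 1.

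Several of the other higher genes were dim or are known from stroma. Wwtr1, the transcriptional coactivator TAZ, stood at 4.19, 3.79 and 3.78 on control and at 4.44, 4.65 and 5.24 on quercetin. Mcam, an adhesion molecule of vessels and smooth muscle, stood at 4.95, 4.98 and 4.81 against 5.26, 5.44 and 5.81. Both were highest on quercetin array 3, the array with the most smooth muscle signal. Their differences were 0.86 ± 0.2 and 0.59 ± 0.13, but the other probe sets of Wwtr1, one of them brighter, gave 0.18 and 0.14. Zbtb20 differed by 0.45, Ppic, a cyclophilin, by 0.49, Prkd3, a protein kinase D, by 0.68, Dram1, a lysosomal protein of autophagy, by 0.42, and Ghr, the growth hormone receptor, by 0.4. Both Prkd3 and Ghr had a dim probe set at 0.00 and a brighter one at 0.55 and 0.64. Ncapg2, a condensin subunit, differed by 0.36. For Rsrc1, Zbtb16 and Lepr both group means lay below the lower quartile of the arrays, at differences of 0.29 to 0.33, and brighter probe sets gave -0.05 for Zbtb16 and -0.01 for Lepr. The adjusted p of the 15 higher genes ran from 0.492 to 0.948 in limma.

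As a list the AhR targets showed no difference beyond their spread. Cyp1a1, the monooxygenase used as the classical reporter of AhR activity, stood at 6.1, 5.91 and 5.89 on control and at 6.02, 5.9 and 6.11 on quercetin. The groups overlapped, and the difference was 0.04 ± 0.12 with a 95% interval from -0.21 to 0.3. Cyp1b1, its relative, stood at 5.52, 5.76 and 5.82 against 5.84, 5.86 and 5.86, a difference of 0.15 with an interval from -0.19 to 0.5. Tiparp, an AhR-induced inhibitor of the receptor, differed by -0.1, Ahrr, the receptor's repressor, by -0.06, and Ahr itself by 0.24 ± 0.19. Of the 9 genes of the AhR list, 3 were higher and 6 lower with a median of -0.06. Quercetin lay above control without overlap in 1 of them, Cyp1b1, against 5.64% of all genes. None had an unadjusted p under 0.05, against 5.07% of all genes in either direction. The AhR core motif, GCGTG or CACGC, lay within the 250 bases before the start of Cyp1a1, Cyp1b1, Tiparp, Arnt and Ahrr. That was 5 of 7 genes with a promoter entry, against 44.7% of all genes.

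**Figure D3:**
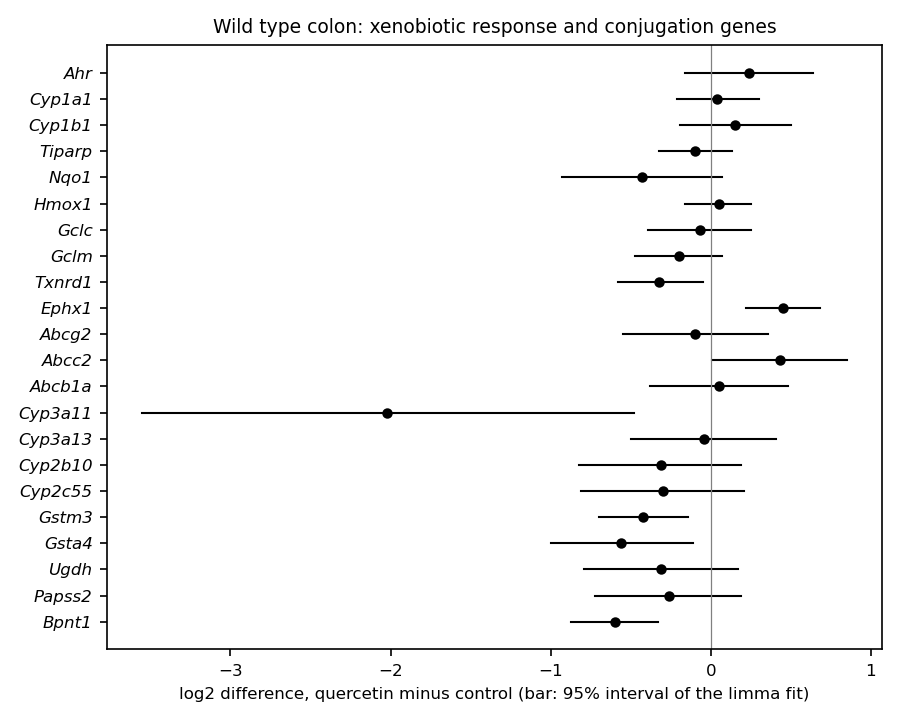
Difference between quercetin and control in wild type (log2 units, points) with the 95% interval of the limma fit (bars) for 22 genes of xenobiotic response, conjugation and transport. Most intervals include 0; those of Cyp3a11, Bpnt1, Gsta4, Gstm3, Txnrd1, Ephx1 and Abcc2 do not, before any adjustment for the number of genes tested.

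The NRF2 targets had a median near 0. Of 31 measured, 11 were higher and 20 lower, with a median of -0.06 that ran from -0.14 without control array 1 to 0.01 without control array 2. An unadjusted p under 0.05 was reached by 3 higher genes, Gpx3, Ephx1 and Abcc2, against 3.21% of all genes, and by 1 lower gene, Txnrd1, against 1.86%. Nqo1, a quinone reductase, stood at 6.4, 7.54 and 6.87 on control and at 6.39, 6.62 and 6.51 on quercetin. The quercetin arrays were close to the lowest control array, and the difference was -0.43 ± 0.23. Txnrd1, thioredoxin reductase, was 9.24, 9.58 and 9.59 against 9.35, 9.09 and 9.02, a difference of -0.32 ± 0.12. Hmox1, the haem oxygenase, differed by 0.05 ± 0.09, and Gclc and Gclm, the subunits that make glutathione's precursor, by -0.07 ± 0.15 and -0.2 ± 0.12. A second probe set of Gclc gave -0.36 ± 0.18. The ARE core motif, TGACNNNGC on either strand, lay in 5 of 26 NRF2 targets with an entry against 13.5% of all genes. Gpx3, an extracellular glutathione peroxidase, was higher on every quercetin array, with 7.39, 7.09 and 6.34 against 8.23, 7.46 and 8.05.

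Most conjugating enzymes were lower by small amounts. Of 20 glutathione S-transferases 17 were lower and 3 higher, with a median of -0.12, and quercetin lay below control in 3 of them (3.64% of all genes). An unadjusted p under 0.05 was reached by 2 of the 20, against 1.86% lower among all genes. Gstm3 stood at 9.14, 8.96 and 9 on control and at 8.58, 8.76 and 8.5 on quercetin, a difference of -0.42 ± 0.13. Gsta4, which removes lipid aldehydes, stood at 8.14, 8.93 and 8.82 against 8.3, 8.17 and 7.75, so that control array 1 fell within the quercetin range. Of 22 genes of glucuronidation, sulfation, methylation and acetylation 14 were lower, with a median of -0.15 that became -0.05 without control array 2 and -0.22 without control array 1. Ugdh, which makes the glucuronic acid donor, was 10.68, 11.65 and 11.52 against 10.9, 10.93 and 11.08. Papss2, which makes the sulfate donor, was 10.38, 11.4 and 11.21 against 10.65, 10.75 and 10.8. In both genes control array 1 was the lowest of all 6 arrays. The differences were -0.31 ± 0.22 and -0.26 ± 0.21.

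Transporters of foreign compounds, for efflux and uptake, showed little difference as a list. Abcg2, an apical efflux pump, differed by -0.1 ± 0.21, and Abcb1a, P-glycoprotein, by 0.05 ± 0.2. Abcc2, an apical conjugate pump, was dim, at 3.47, 3.92 and 3.98 on control and 4.58, 3.87 and 4.22 on quercetin. Of the 17 efflux and uptake transporters 9 were higher and 8 lower, with a median of 0.04.

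The P450 enzymes of families 2, 3 and 4 had a median of -0.03 over 33 genes, of which 13 were higher and 20 lower. Cyp3a11, a drug-metabolising enzyme of liver and gut, stood at 9.71, 8.89 and 8.77 on control and at 5.6, 8.5 and 7.22 on quercetin. Quercetin array 1 was far below the others. The difference was -2.02 ± 0.71, with an adjusted p of 0.952 in limma, and from -2.71 to -1.26 with 1 array left out. The small intestine genes were also lowest on quercetin array 1, and their part in the value was not tested. Cyp2c55, a P450 known from the colon, stood at 12.02, 13.12 and 12.93 against 12.3, 12.44 and 12.43, a difference of -0.3 ± 0.24. Cyp3a13 differed by -0.04 ± 0.21 and Cyp2b10, a target of the receptor CAR, by -0.31 ± 0.23. Other probe sets of Cyp2b10 gave -0.79 ± 0.45 and -0.72 ± 0.5.

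Smooth muscle genes were higher in all 23 measured members, with a median of 1.31. Quercetin lay above control without overlap in 14 of them, against 5.64% of all genes, and 18 had an unadjusted p under 0.05, against 3.21%. Their mean was 6.13, 5.9 and 5.83 on the control arrays and 6.26, 7.19 and 8.64 on the quercetin arrays. Quercetin array 1 lay beside control array 1, array 2 above it and array 3 far above. Actg2, the enteric smooth muscle actin, stood at 4.72, 4.83 and 4.77 on control and at 5.29, 7.87 and 10.07 on quercetin. Myh11, smooth muscle myosin, stood at 5.31, 5.36 and 5.11 against 5.64, 7.48 and 10.23, and Des, desmin, at 6.6, 6.65 and 6.56 against 6.71, 7.73 and 9.69. In these 3 genes the values of the quercetin arrays spanned more than the distance between the groups at its narrowest. The differences were 2.97 ± 0.91, 2.52 ± 0.85 and 1.44 ± 0.53, with adjusted p from 0.948 to 0.952 in limma. Without quercetin array 3 the list median was 0.62, and without both that array and control array 1 it was 0.74.

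Smooth muscle genes are known targets of serum response factor, which binds the CArG box. The promoters of Myl9, the myosin regulatory light chain, and Cnn2, a calponin, are shown because they are the members in which the box was found, in capitals (RefSeq, GRCm38.p6).
Myl9 (chr2:156775273-156775342, plus strand): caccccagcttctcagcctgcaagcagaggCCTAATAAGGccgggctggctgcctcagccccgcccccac
Cnn2 (chr10:79988514-79988583, plus strand): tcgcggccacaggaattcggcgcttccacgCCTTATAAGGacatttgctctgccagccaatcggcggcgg
The box lay in 2 of 18 smooth muscle genes with an entry and in 1.6% of all genes, in the same 250 bases on both strands. Myl9 stood at 5.68, 5.31 and 5.11 on control and at 6.23, 8.12 and 10.02 on quercetin. Cnn2 stood at 6.84, 6.54 and 6.67 against 6.8, 7.79 and 7.48. The first was apart between groups and the second was not, with differences of 2.76 ± 0.77 and 0.67 ± 0.26.

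Other stroma differed in the same direction by less. Of 37 fibroblast and matrix genes 34 were higher, with a median of 0.44, and 15 had an unadjusted p under 0.05, against 3.21% of all genes. The median was 0.29 without quercetin array 3 and 0.6 without control array 1. Dpt, the matrix protein dermatopontin, stood at 6.49, 5.73 and 4.96 on control and at 6.96, 6.67 and 7.53 on quercetin. Timp3, an inhibitor of matrix proteases, was 5.97, 5.58 and 5.41 against 6.32, 6.16 and 6.62. Both were apart, while the main collagen genes were not, with Col1a1 at 0.18 ± 0.15 and Col3a1 at 1.64 ± 0.83. The fibroblast list mean was 6.64, 6.1 and 5.83 on control and 6.67, 6.5 and 7.02 on quercetin, so that control array 1 lay within the quercetin range. Of 25 endothelial genes 21 were higher, with a median of 0.14 that became 0.07 without control array 3. Pecam1, an adhesion molecule of vessels, differed by 0.38 ± 0.18. Of 23 genes of enteric neurons and glia 14 were higher, with a median of 0.03.

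**Figure D4:**
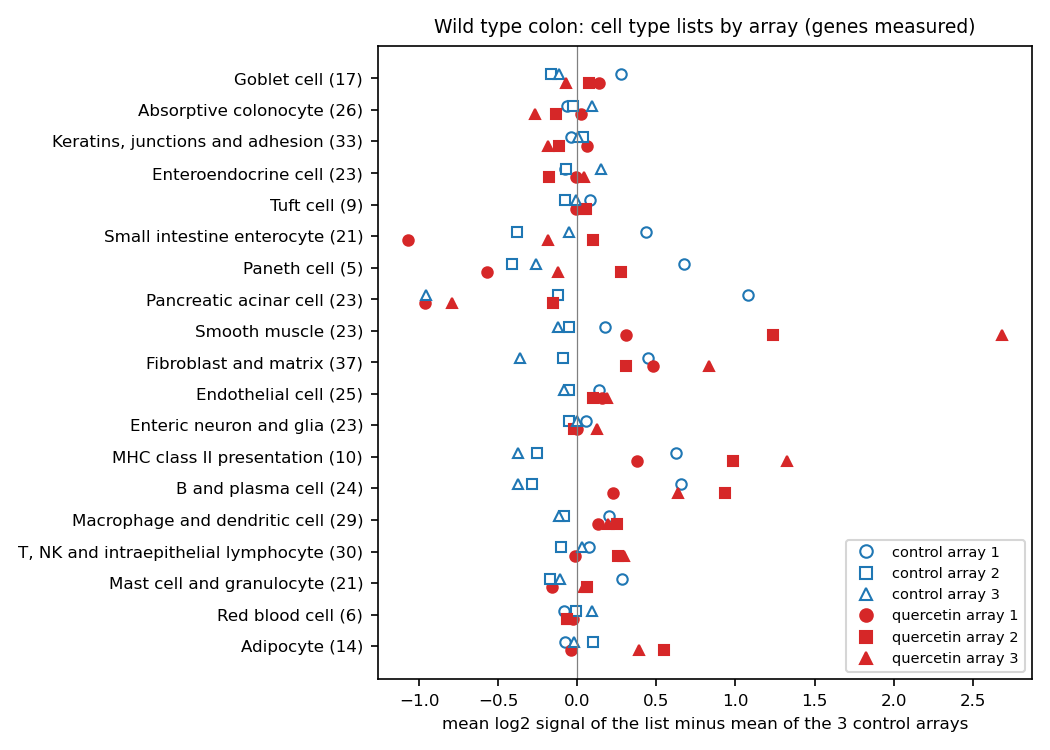
Mean log2 signal of each list of cell type markers on each wild type array, minus the mean of the 3 control arrays; numbers in brackets are genes measured, open symbols control and filled symbols quercetin. Smooth muscle has the widest spread over the quercetin arrays, with array 1 near control and array 3 farthest from it. Pancreatic genes are highest on control array 1. Colonocyte, goblet, enteroendocrine, tuft and keratin lists lie close to 0, while Paneth and small intestine lists spread more widely over the arrays.

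Most genes of MHC class II and of B and plasma cells were higher on quercetin, with control array 1 above quercetin array 1 in the mean of either list. MHC class II genes, which present antigen to helper T cells, had a list mean of 7.86, 6.98 and 6.86 on control and of 7.61, 8.22 and 8.56 on quercetin. Of 10 measured, 8 were higher, with a median of 0.92, 6 had an unadjusted p under 0.05, against 3.21% of all genes, and none was apart between the groups, against 5.64% of all genes with quercetin above. Cd74, the invariant chain, stood at 9.87, 8.07 and 7.85 against 9.49, 10.59 and 10.93. H2-Aa, a class II alpha chain, stood at 9.92, 8 and 7.54 against 9.38, 10.29 and 11.22. In both genes control array 1 lay above quercetin array 1 and below the other quercetin arrays. The list median was 0.7 to 1.23 with 1 array left out. The markers of B and plasma cells were higher in 21 of 24 members, with a median of 0.48 that became 0.81 without control array 1 and 0.34 without quercetin array 2. Cd79b, part of the B cell receptor, was 6.92, 5.72 and 5.79 against 6.48, 8.78 and 7.72.

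T cell and macrophage genes showed smaller differences. Of 30 genes of T cells, natural killer cells and intraepithelial lymphocytes 23 were higher, with a median of 0.11 that became 0.07 without quercetin array 3. Ptprc, the common leukocyte antigen CD45, stood at 7.14, 5.8 and 6.01 on control and at 6.84, 8.37 and 7.34 on quercetin, while Cd3e, of the T cell receptor complex, differed by 0.13 ± 0.1. Of 29 macrophage and dendritic cell genes 22 were higher, with a median of 0.11, and Adgre1, an adhesion receptor of macrophages, differed by -0.01 ± 0.1. Nfkbia, which holds NF-kB in the cytoplasm and is itself induced by it, stood at 10.42, 10.25 and 10.17 against 10.47, 10.65 and 10.57. Its groups were apart by less than the spread within the control group, and the difference was 0.28 ± 0.09. Of 35 genes of NF-kB and cytokines 25 were higher, with a median of 0.06, and of 33 interferon-inducible genes 24 were higher, with a median of 0.16 that became 0.02 without control array 3 and 0.25 without control array 1. Gbp2, an interferon-inducible GTPase, stood at 8.32, 7.02 and 6.55 against 8.31, 8.22 and 8.58, with control array 1 among the quercetin arrays. The mean of the B and plasma cell list, which was 7.13, 6.19 and 6.1 on control and 6.7, 7.41 and 7.11 on quercetin, put control array 1 above quercetin arrays 1 and 3 as well. Of 21 genes of mast cells and granulocytes 10 were higher and 11 lower, with a median of -0.02.

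Lists of colonocytes, goblet, enteroendocrine and tuft cells and of keratins and junctions lay close to control. Of 26 absorptive colonocyte genes 23 were lower, against 48.9% of all genes, with a median of -0.1 (-0.21 without quercetin array 1 and -0.04 without array 3). None had an unadjusted p under 0.05, against 1.86% lower among all genes, a share too small to tell in 26 genes. Slc26a3, the chloride and bicarbonate exchanger, differed by -0.02 ± 0.25, Car4 by 0.00 ± 0.13 and Car1 by -0.28 ± 0.19. Of 33 keratin, junction and adhesion genes 25 were lower, with a median of -0.08 (-0.13 without control array 1 and -0.04 without control array 2), and quercetin lay below control in 5 of them, against 3.64% of all genes. Dsc2, a desmosomal cadherin, stood at 8.49, 8.82 and 8.66 against 8.41, 8.37 and 8.43, a difference of -0.25 ± 0.1. F11r, a tight junction protein, stood at 10.17, 10.19 and 10.19 against 10.07, 9.97 and 10.01, a difference of -0.17 ± 0.08. Goblet cell genes had a median of -0.01 over 17 members. Within them Spdef, the transcription factor of goblet maturation, was 8.68, 9.39 and 9.22 against 9.09, 8.19 and 7.8, whereas Tff3, a secreted trefoil peptide, differed by 0.17 ± 0.13. Enteroendocrine genes had a median of -0.03 over 23 members and tuft cell genes of 0.02 over 9.

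Defence genes pointed in both directions. Itln1, an intestinal lectin that binds microbial sugars, stood at 11.71, 10.94 and 10.63 on control and at 6.82, 10.29 and 8.27 on quercetin. All quercetin arrays were below control, array 2 by little and array 1 by several log2 units. The difference was -2.63 ± 0.83 with an adjusted p of 0.948 in limma. Quercetin array 1 was also the lowest for small intestine genes, and their part in the value was not tested. Reg3g, a lectin that kills Gram-positive bacteria, stood at 8.08, 8.76 and 8.88 against 6.62, 7.65 and 7.99, a difference of -1.15 ± 0.65. Lyz1, a lysozyme, stood at 9.7, 6.04 and 6.52 against 8.73, 9.86 and 9.04, and Retnlb, a goblet cell peptide against bacteria, at 12.86, 12.03 and 11.67 against 12.51, 12.68 and 12.78. For Lyz1 control array 1 lay within the quercetin range, and for Retnlb above it. The list of 26 defence genes had 13 higher and 12 lower, with a median of 0.04.

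Genes of the small intestine and the pancreas varied by array. Of 21 small intestine genes 18 were lower, with a median of -0.44, which became -0.07 without quercetin array 1. Their mean was 8.19, 7.37 and 7.7 on control and 6.68, 7.85 and 7.57 on quercetin. Fabp1, a fatty acid binding protein of enterocytes, stood at 9.36, 7.53 and 7.67 against 4.59, 8.01 and 7.4. Of 23 acinar genes 20 were lower, with a median of -0.85 that became -0.16 without control array 1. Their mean was 8.31, 7.11 and 6.28 against 6.27, 7.08 and 6.44. Without these single arrays both lists lay much closer to 0, while leaving out others moved them away from it. The small intestine median was -0.59 without control array 2, and the acinar median was -1.41 without control array 3.

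Most genes of fatty acid oxidation were lower, by small amounts. Of 33 genes of fatty acid oxidation and ketogenesis 31 were lower and 2 higher, with a median of -0.14. Quercetin lay below control in 4 of them, against 3.64% of all genes, and above in 1, against 5.64%. An unadjusted p under 0.05 was reached by 3 lower genes, against 1.86%, and by no higher one. The list mean was 8.4, 8.8 and 8.58 on control and 8.33, 8.42 and 8.45 on quercetin, so that control array 1 lay within the quercetin range. Slc27a4, a fatty acid transporter, stood at 9.45, 10 and 9.81 against 9.19, 9.31 and 9.36, a difference of -0.47 ± 0.18. Slc27a2, of the same family, stood at 6.51, 6.14 and 6.31 against 5.95, 6.01 and 5.53, a difference of -0.49 ± 0.15. Cpt1a, the gate of mitochondrial fatty acid entry, differed by -0.16 ± 0.17. The list median was -0.23 without control array 1 and -0.06 without control array 2. Pparg, a nuclear receptor active in colonocytes, stood at 8.01, 8.51 and 8.5 against 8.12, 8.05 and 7.92.

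All 9 genes that handle hydrogen sulfide, a product of colonic bacteria that colonocytes oxidise, were lower, with a median of -0.16. Their mean was 9.31, 9.74 and 9.75 on control and 9.46, 9.41 and 9.36 on quercetin, so that control array 1 lay below all quercetin arrays. The median was -0.31 without control array 1 and -0.04 without control array 2. Mpst, a sulfurtransferase, stood at 7.67, 8.07 and 8.23 on control and at 7.33, 7.19 and 7.3 on quercetin. The groups were apart, and the difference was -0.72 ± 0.2. Sqor and Ethe1, enzymes of sulfide oxidation, differed by -0.09 ± 0.1 and -0.16 ± 0.12. Of 69 genes of oxidative phosphorylation 47 were lower, with a median of -0.04 that became -0.12 without control array 1. Cholesterol synthesis had 12 of 18 genes higher and a median of 0.08, which became 0.2 without control array 1 and 0.02 without control array 3. Hmgcs1, its early synthase, stood at 10.57, 9.59 and 9.42 against 10.36, 10.41 and 10.42, with control array 1 above all quercetin arrays.

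Stress and growth genes were near control. Of 34 genes of endoplasmic reticulum chaperones and stress 27 were lower, with a median of -0.11 that became -0.05 without control array 1. Hspa5, the main chaperone, stood at 10.55, 10.48 and 10.57 against 10.29, 10.39 and 10.2. Its groups were apart, and the difference was -0.24 ± 0.16. Of 24 heat shock genes 18 were lower, with a median of -0.15 that became -0.06 without control array 2. Hspa1b, an inducible chaperone, stood at 7.84, 9.27 and 8.31 against 6.91, 8.24 and 7.29, and Hspb1, a small one, at 7.58, 7.4 and 7.44 against 7.56, 8.06 and 9.06, following the smooth muscle order of the arrays. Egr1, an immediate early transcription factor, stood at 8.42, 7.98 and 7.86 against 7.71, 7.55 and 7.59, a difference of -0.47 ± 0.15. Of 39 proliferation genes 24 were higher, with a median of 0.03. Mki67 differed by 0.03 ± 0.3, Lgr5, a marker of crypt stem cells, by -0.13 ± 0.13, and Cdkn1a, the p21 cell cycle inhibitor, by -0.05 ± 0.08. The prostaglandin genes had a median of -0.02 over 23 members, and Ptgs2, the inducible cyclooxygenase, was dim and differed by 0.16 ± 0.12. A second, still dimmer probe set of Ptgs2 gave 0.22 ± 0.07.

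Whether quercetin acted differently in the genotypes was tested as an interaction, the wild type difference minus the POR-null difference. It called 0 of 22626 probe sets (0%) at the adjusted threshold of limma, with a smallest adjusted p of 0.45, and 1073 (4.74%) at an unadjusted p under 0.05. The smallest p was again that of Ccn3. In POR-null mice it stood at 6.12, 6.09 and 5.49 on control and at 5.96, 6.79 and 6.63 on quercetin, a difference of 0.56 ± 0.36. The POR-null controls lay below the wild type controls. The interaction was -3.2 ± 0.5, and without wild type quercetin array 1 it was -3.66 with an adjusted p of 0.0107.

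Other genes with a small interaction p also had different levels in the POR-null arrays. Deptor stood at 8.79, 8.97 and 8.96 on the POR-null control arrays and at 8.86, 9.09 and 9.27 on quercetin, with an interaction of -0.86 ± 0.18. Gas5 stood at 9.18, 8.82 and 8.93 against 8.87, 8.9 and 8.71, with an interaction of 0.93 ± 0.2. In Gas5 the POR-null controls lay at about the level of the wild type quercetin arrays. Sdc4, a heparan sulfate proteoglycan of the cell surface, was 9.39, 7.71 and 7.83 against 9.92, 9.37 and 9.15 in wild type mice. In POR-null mice it was 9.66, 8.54 and 8.54 against 7.47, 7.39 and 7.15. The differences of 1.17 and -1.58 had opposite signs, and the interaction was 2.75 ± 0.56 with an adjusted p of 0.998 in limma. Without wild type control array 1 and quercetin array 3 the interaction was 3.45 with an adjusted p of 0.0477. A second Sdc4 probe set gave -0.23 ± 0.17 in wild type mice, so the probe sets of the gene disagreed. Il6st, the signalling receptor of interleukin 6, differed by 0.93 in wild type and -0.59 in POR-null mice, and its dimmer probe sets gave 0.11 and 0.22 in wild type mice. The lists that were higher in wild type mice had POR-null medians of 0.11 for smooth muscle, -0.05 for fibroblasts and matrix, -0.38 for MHC class II and -0.32 for B and plasma cells, and the difference between genotypes was not tested for a list.

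**Figure D5:**
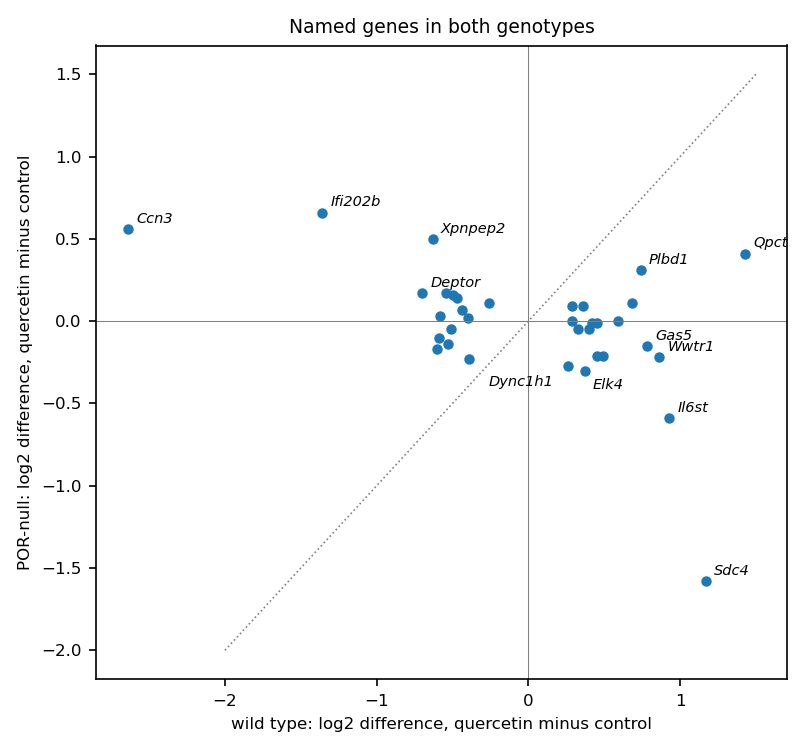
Difference between quercetin and control (log2 units) in wild type (horizontal) and POR-null colon (vertical) for 35 named genes, each point a gene; the dotted line marks equal differences. The genes were chosen for small p in wild type or for the interaction, so their distance from the line is in part set by that choice; Ccn3 at -2.64 and 0.56 and Sdc4 at 1.17 and -1.58 lie farthest from it.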

How the data were processed

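Expression was measured on 12 Affymetrix 430A arrays of colon epithelium, of which the 6 wild type arrays were compared. The authors deposited 1 table of signal values, taken here as log2 signal from their range of 2.7 to 14.09. MAS5 and RMA appear in the submitters' processing notes with neither version nor role, and a genome build is not given in the sources used here. Of 22690 probe sets, 64 controls were left out and 22626 tested, with no filter on signal. Array annotation gave 1 symbol to 20380 probe sets, several to 691 and none to 1555, for 12393 genes, and 20351 matched RefSeq (GRCm38.p6).

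The comparison used limma 3.58.1 under R 4.3.3 (lmFit, eBayes with an intensity trend, 12.91 degrees of freedom), with 4 group means over all 12 arrays. Each p is two-sided, and adjusted p values follow Benjamini and Hochberg across all probe sets. The scripts were tested on simulated data. Intervals are 95% intervals of that fit, and the number of arrays limits precision. For lists, each gene was taken by the probe set that was brightest over all 12 arrays. Gas5 and Kdelr2 therefore differ there from their named probe sets.

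Named genes were the 15 higher and 15 lower of the smallest unadjusted p without overlap, up to 5 members of each of 52 lists, defining markers, 10 of the smallest interaction p, and a fixed set of genes. The genes and lists were chosen with earlier results of these data known. Some genes of the fixed set are not reported here. Deviations of same-numbered control and quercetin arrays correlated at -0.19, 0.01 and 0.04, so the numbers were not taken as pairs. Alternatives were the 6 wild type arrays alone, the replicate number as a block, no trend, a filter at log2 5, quantile normalization, median centring, array weights and each array left out. Leaving out control array 1 and quercetin array 3 together was added after seeing the data.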

Additional observations from a re-analysis of the deposited data

Results flagged for a closer look

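In 5 of the 60 named genes checked, the differences of wild type and POR-null mice had opposite signs without overlap between the diets in either genotype. The same held for 82 of all 22626 probe sets (0.362%). Of the 5 genes, Dync1h1, Elk4, Serinc3 and Xpnpep2 were among the 60 for their small interaction p, so the choice of genes partly fixes the count. Dync1h1, the heavy chain of cytoplasmic dynein, had an interaction of 0.54. Elk4, a partner of serum response factor, had one of 0.67, and Rimklb, at dim signal, one of -0.36. Other probe sets did not repeat the wild type differences of these genes, with -0.02 and 0.07 for Elk4 against 0.37, and with 0.07, 0.01 and 0.06 for Rimklb against -0.26. Serinc3 had one of -0.67 by the probe set chosen for the interaction, and Xpnpep2, a membrane aminopeptidase, one of -1.12. None passed the adjusted threshold of the interaction in limma, with an adjusted p of 0.998 for each.

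Xpnpep2 stood at 7.48, 7.4 and 8.01 on wild type control arrays and at 6.78, 7.12 and 7.11 on quercetin. In POR-null mice it stood at 6.5, 6.81 and 7.04 against 7.56, 7.19 and 7.09. Elk4 stood at 8.18, 7.9 and 7.88 against 8.38, 8.33 and 8.36 in wild type mice, and at 8.44, 8.36 and 8.35 against 8.08, 7.94 and 8.23 in POR-null mice.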

How the results depend on the processing

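All 30 genes of the smallest p kept their sign in every alternative that tested them, at 0.72 to 1.35 times the reported difference. They were chosen because their groups did not overlap, so leaving out or weighting arrays could not turn a sign. For those alternatives the kept sign was fixed by the choice. The filter on dim probe sets left 17 of the 30. Calls at the adjusted threshold numbered 2 with array weights (both of Ccn3), 0 to 3 with 1 array left out and 1 without control array 1 and quercetin array 3; for the interaction 0 to 1 and 5. Higher sets at an unadjusted p under 0.05 numbered 473 with the signal filter, 1367 with array weights and 461 to 986 with 1 array left out. Lower sets numbered 1143 with array weights, 816 with both arrays out and 308 to 955 with 1 out. Sets apart and above numbered 833 with the filter, 4233 with both arrays out and 1940 to 2985 with 1 out, and below, 4342 and 1350 to 2727; fewer arrays make non-overlap easier. With the replicate block 0 probe sets passed, and 757 were higher and 503 lower without adjustment.

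Among the single genes tracked, signs turned only for small differences: Abcg2 (-0.32 to 0.06 with 1 array out), Gclc (-0.24 to 0.12), Cyp1a1 (-0.01 to 0.11), Abcb1a (-0.08 with array weights, -0.17 with both arrays out, -0.19 to 0.19 with 1 out), Cyp3a13 (-0.2 to 0.23), Mki67 (-0.13 to 0.17), Slc26a3 (0.01 after quantile normalization, 0.26 with both out, -0.28 to 0.19 with 1 out) and Car4 (0.01, 0.1, and -0.08 to 0.12 with 1 out). The cause was not tested. Limits are 3 pools a group, single arrays that stood apart in markers of neighbouring tissue, and dim probe sets. Of 780 list medians under alternatives, 22 moved by over 1 SD.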

Other observations

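Genes of fat cells divided within their list. Fabp4, a fatty acid carrier of adipocytes and capillaries, stood at 4.58, 4.74 and 3.53 on control and at 5.38, 6.78 and 6.49 on quercetin. Adipoq, the hormone adiponectin, stood at 3.9, 4.11 and 4.04 against 4.08, 6.54 and 5.63, and Car3, a carbonic anhydrase of fat and muscle, at 5.66, 6.05 and 5.54 against 5.9, 8.61 and 7.8. Quercetin array 2 was the highest for all 3 genes, and array 1 was near control for Adipoq and Car3. The differences were 1.93 ± 0.72, 1.4 ± 0.72 and 1.69 ± 0.83, while the list of 14 genes had a median of 0.00 and Lep, leptin, differed by 0.02 ± 0.08. In POR-null mice the differences were -0.71, -1.38 and -1.42.

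Apoe, a lipid carrier made by macrophages, stood at 7.14, 5.54 and 4.85 on control and at 7.31, 7.41 and 7.55 on quercetin, a difference of 1.58 ± 0.55. Control array 1 lay just below the quercetin arrays, and the groups did not overlap. The mast cell proteases Mcpt1 and Mcpt2 varied by array, while Mcpt4 differed by only 0.06 ± 0.14. Mcpt1 stood at 8.53, 5.19 and 5.05 on control and at 5.11, 7.25 and 6.43 on quercetin, and Mcpt2 at 9.35, 6.22 and 6.1 against 6.2, 7.94 and 7.43. The differences of 0.01 ± 1 and -0.03 ± 0.97 hide a spread of over 2 log2 units within each group for Mcpt1. Metallothioneins, which bind zinc, had a wide spread on quercetin, where Mt2 stood at 10.46, 9.73 and 9.2 against 9.86, 10.29 and 10.24 on control. Insl5, a peptide hormone of colonic endocrine cells, stood at 7.45, 6.33 and 7.8 on control and at 8.61, 7.81 and 7.6 on quercetin.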
